A study of Mus musculus with 4 samples.

Results

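The 7 genes that encode the subunits of the NMDA receptor (Grin1, Grin2a, Grin2b, Grin2c, Grin2d, Grin3a and Grin3b) were followed in RNA sequencing of mouse cortical astrocytes. They were chosen by gene symbol, and all 7 were found among the 29224 genes of the deposited tables. The cells came from the cerebral cortex at postnatal day 5 and were isolated with magnetic beads against GLAST, the glutamate transporter recognised by the ACSA-1 antibody. There were 2 Ezh2 f/f libraries, from mice with floxed alleles of the histone methyltransferase gene Ezh2, and 2 Ezh2 cKO libraries, from floxed mice that also carried the Aldh1l1-icre transgene, in which Cre is driven by Aldh1l1, an astrocyte gene. The floxed alleles were thus common to the groups, and only the Ezh2 cKO mice carried Cre. C57BL/6J and ICR (CD1) mice were used in the study, and the strain behind each library is not given in the sources used here. The labels do not say whether the libraries of a group came from separate animals, so the spread between them may be technical. The p-values rest on this spread and on that of the other genes tested.

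NMDA receptors are calcium-permeable channels of 4 subunits, in which the obligatory GluN1 protein (Grin1) is joined by GluN2 or GluN3 proteins. The GluN2 proteins (Grin2a to Grin2d) bind glutamate, and the GluN3 proteins (Grin3a and Grin3b) bind glycine. Receptors of GluN1 and GluN2 need glutamate together with glycine or D-serine as a coagonist to open. In the forebrain GluN2B and GluN2D are the early GluN2 subunits, and GluN2A transcript rises as the postnatal cortex matures. NMDA receptors are best known from neurons, where the GluN2 tails are anchored at the synapse by scaffolds of the PSD-95 family, and Grin2c transcript has also been described in astrocytes.

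The part that encodes this anchor is shown for Grin2b, Grin2c and Grin2d to let these family members be compared directly. The lines give the last 36 coding bases of each gene, 5′ to 3′ on the minus strand of GRCm38, read with the GENCODE M21 annotation. The capitals mark the last 4 codons and the stop codon, which encode the end that binds PDZ domains. They were taken from chr6:135732098-135732133 for Grin2b, chr11:115249571-115249606 for Grin2c and chr7:45832780-45832815 for Grin2d.
Grin2b: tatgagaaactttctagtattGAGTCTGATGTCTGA
Grin2c: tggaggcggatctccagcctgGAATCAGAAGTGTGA
Grin2d: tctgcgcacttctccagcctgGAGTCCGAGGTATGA
Over the 15 bases in capitals Grin2b and Grin2d differed at 3 bases, and each of them differed from Grin2c at 4. The coding sequences behind these ends have 1482 codons in Grin2b, 1239 in Grin2c and 1323 in Grin2d, without the stop codon.

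Bases upstream of the start site are shown for the subunit genes because Ezh2 acts through Polycomb repressive complex 2, which in mammals is found mainly at CpG-rich promoters. The RefSeq promoter table (GRCm38.p6) held 4 of the 7 genes, and Grin2a, Grin2b and Grin3a were not matched. The lines give the 250 bases before the start of Grin1 (chr2:25319188-25319437) and Grin2c (chr11:115267244-115267493), both 5′ to 3′ on the minus strand, with every CpG dinucleotide (the letters CG, which read the same on the opposite strand) in capitals.
Grin1: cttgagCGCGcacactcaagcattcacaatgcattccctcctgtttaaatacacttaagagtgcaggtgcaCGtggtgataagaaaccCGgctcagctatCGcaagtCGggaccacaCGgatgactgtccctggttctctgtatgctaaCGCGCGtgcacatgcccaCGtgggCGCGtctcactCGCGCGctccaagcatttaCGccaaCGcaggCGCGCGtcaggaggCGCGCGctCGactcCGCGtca
Grin2c: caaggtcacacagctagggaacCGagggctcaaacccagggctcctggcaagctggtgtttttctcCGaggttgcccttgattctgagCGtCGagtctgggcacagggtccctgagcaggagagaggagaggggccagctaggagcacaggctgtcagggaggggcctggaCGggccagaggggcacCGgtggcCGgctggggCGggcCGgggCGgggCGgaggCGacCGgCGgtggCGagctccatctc
The Grin1 window holds 27 CpG, a number reached by 8.56% of the 32851 windows in the table, whose median is 6. The Grin2c window holds 15 (reached by 27.3% of windows) and that of Grin2d 9 (40.3%). In contrast, the window of Grin3b holds 2, and 81.2% of windows have as many or more. The RefSeq start of Grin2d lies inside the gene as GENCODE M21 places it, so its window is not upstream of that gene model, and the window of Grin3b reaches a few bases into its own. These are descriptions of sequence, and histone marks at these sites were not analysed here.

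The libraries held 16273308 to 17522152 counts. A count of 3 was taken as the floor of detection, up to which a library listed at 0 could lie by counting error. The Ezh2 f/f libraries held 434 and 327 counts of Ezh2, against 211 and 164 in Ezh2 cKO (log2 fold change -1.11, SE 0.16, edgeR adjusted p = 3.26e-05), counted over the whole gene and not over the floxed exons alone. Every fold change has Ezh2 f/f as the base, and comes from edgeR's quasi-likelihood test, with Benjamini-Hochberg adjustment of p over the 16793 genes that were tested. The unit CPM gives counts scaled to a common library size after TMM adjustment, and FPKM is scaled to gene length as well. Coordinates of genes are printed as deposited. The submitters' processing notes name mm9, but the build was not verified: of 28799 identifiers found in GENCODE M21 (GRCm38), 581 have the same coordinates there.

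All 7 subunit genes passed the filter on low counts and all 7 passed the test, with 6 higher and 1 lower in Ezh2 cKO. In DESeq2 5 of them passed, beside 58.8% of all genes tested in that fit. Not all 7 kept the call when 1 library was left out. Calls were common in this comparison: 68.4% of all genes tested passed, 34.7% as higher and 33.6% as lower, and the median log2 fold change over all genes was 0.02. The median over the 7 subunit genes was 1.22. Grin2a had the largest rise, followed by Grin2c, Grin1, Grin2b, Grin3a and Grin2d, and Grin3b fell. The call of Grin2d rests on libraries that overlapped between groups, and that of Grin3b on at most 15 counts in a library. In bulk RNA, fewer cells of a type and less RNA per cell cannot be told apart, and which cells in the sorted samples held these transcripts was not measured.

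**Figure D1:**
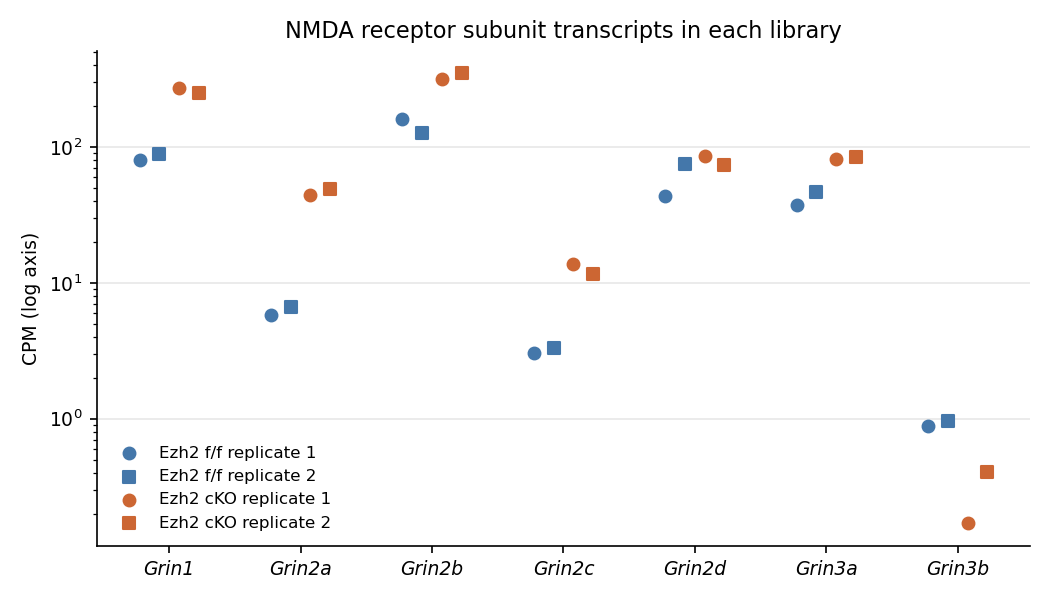
CPM (log axis) of each of the 7 subunit genes in the 2 Ezh2 f/f libraries (blue) and the 2 Ezh2 cKO libraries (orange), with circles for replicate 1 and squares for replicate 2. Grin2d is the gene whose groups overlap, from 43.4 to 85.6 CPM, and Grin3b the gene that is lower in Ezh2 cKO, below 1 CPM in every library. The share of all genes tested whose groups do not overlap was not computed.

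Grin1, the gene of the subunit that every NMDA receptor contains, lies at chr2:25181193-25209199 on the minus strand. The Ezh2 f/f libraries held 1379 and 1386 of its counts, against 4786 and 4362 in Ezh2 cKO. These equal 80.6 and 88.1 CPM against 271 and 251 CPM. The Ezh2 cKO libraries stood well above the Ezh2 f/f libraries, and the libraries of a group differed by at most 1.09-fold. The rise was 3.10-fold (log2 fold change 1.63, SE 0.09, edgeR adjusted p = 3.82e-09), and 10.2% of the genes tested had a larger log2 fold change. The window upstream of this gene, printed above, was the most CpG-rich of the 4 that were matched, and a link to the rise was not tested.

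Grin2a, the gene of the GluN2 subunit of the maturing cortex (chr16:9385762-9813424, minus strand), was at 5.79 and 6.61 CPM in Ezh2 f/f, against 44.4 and 48.8 CPM in Ezh2 cKO. In counts, these were 99 and 104 against 784 and 846. The Ezh2 f/f level was thus low but well above the floor, and the groups lay far apart. Grin2a rose 7.52-fold (log2 fold change 2.91, SE 0.14, edgeR adjusted p = 6.74e-10), with 2.29% of genes tested above it. On the log2(FPKM + 1) scale, on which low levels are compressed, the difference was 1.46 and still passed the test of limma (adjusted p = 8.81e-05).

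Grin2b encodes the main GluN2 subunit of the newborn forebrain and lies at chr6:135690231-136150509 on the minus strand. It was at 160 and 126 CPM in Ezh2 f/f, against 317 and 349 CPM in Ezh2 cKO. The Ezh2 f/f libraries differed from each other by 1.27-fold, less than the difference between groups. Grin2b was 2.33-fold higher in Ezh2 cKO (log2 fold change 1.22, SE 0.11, edgeR adjusted p = 3.12e-07).

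Grin2c, the GluN2 gene best known from cerebellar granule cells (chr11:115139995-115158069, minus strand), had 52 counts in each Ezh2 f/f library, against 242 and 201 in Ezh2 cKO. Its levels were 3.04 and 3.31 CPM against 13.7 and 11.6 CPM. The groups did not overlap, and the rise of 3.98-fold was the second largest of the family (log2 fold change 1.99, SE 0.20, edgeR adjusted p = 7.54e-07). With limma on log2(FPKM + 1) the difference was 1.15.

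Grin2d, an early GluN2 gene also found in interneurons (chr7:45481307-45527802, minus strand), had 743 and 1169 counts in Ezh2 f/f, against 1512 and 1281 in Ezh2 cKO. In CPM the Ezh2 f/f libraries were at 43.4 and 74.3, and the Ezh2 cKO libraries at 85.6 and 73.8. The groups overlapped, since Ezh2 f/f replicate 2 was slightly above Ezh2 cKO replicate 2. The Ezh2 f/f libraries differed by 1.71-fold, a spread reached by 0.625% of the 9605 genes tested that had at least 10 CPM in Ezh2 f/f. The log2 fold change of 0.44 (SE 0.18, edgeR adjusted p = 0.0392) became 0.10 when Ezh2 f/f replicate 1 was left out and 0.86 when Ezh2 f/f replicate 2 was. It did not pass in DESeq2 (0.42, adjusted p = 0.360), nor when either Ezh2 cKO library was left out.

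Grin3a encodes a glycine-binding subunit that lowers calcium entry and is most abundant in the early postnatal brain (chr4:49661611-49845744, minus strand). It was at 37.1 and 46.8 CPM in Ezh2 f/f, against 81.8 and 83.7 CPM in Ezh2 cKO. The Ezh2 cKO libraries were nearly equal, and both exceeded the Ezh2 f/f libraries. The difference was 1.97-fold (log2 fold change 0.98, SE 0.11, edgeR adjusted p = 2.70e-06).

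Grin3b, the other glycine-binding subunit gene, is known mainly from motor neurons and lies at chr10:79806549-79813024 on the plus strand. It had 15 counts in each Ezh2 f/f library (exact Poisson 95% interval 8.40 to 24.7, for counting error only). The Ezh2 cKO libraries had 3 counts (0.619 to 8.77) and 7 counts (2.81 to 14.4). The intervals overlapped between the groups, and 1 Ezh2 cKO library was at the floor. The log2 fold change was -1.65 (SE 0.55, edgeR adjusted p = 0.0166), and it did not pass in DESeq2 (-1.69, adjusted p = 0.129). It was -1.16 without Ezh2 cKO replicate 1 and -2.37 when Ezh2 cKO replicate 2 was left out instead, and the call was lost when any library other than Ezh2 cKO replicate 2 was left out. Grin3b overlaps Tmem259 on the opposite strand, which had 5514 and 4881 counts in Ezh2 f/f, against 3202 and 2842 in Ezh2 cKO (log2 fold change -0.87, edgeR adjusted p = 9.61e-07). Whether the counting used strand is not given in the sources used here, so reads of the pair cannot be told apart where they overlap.

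**Figure D2:**
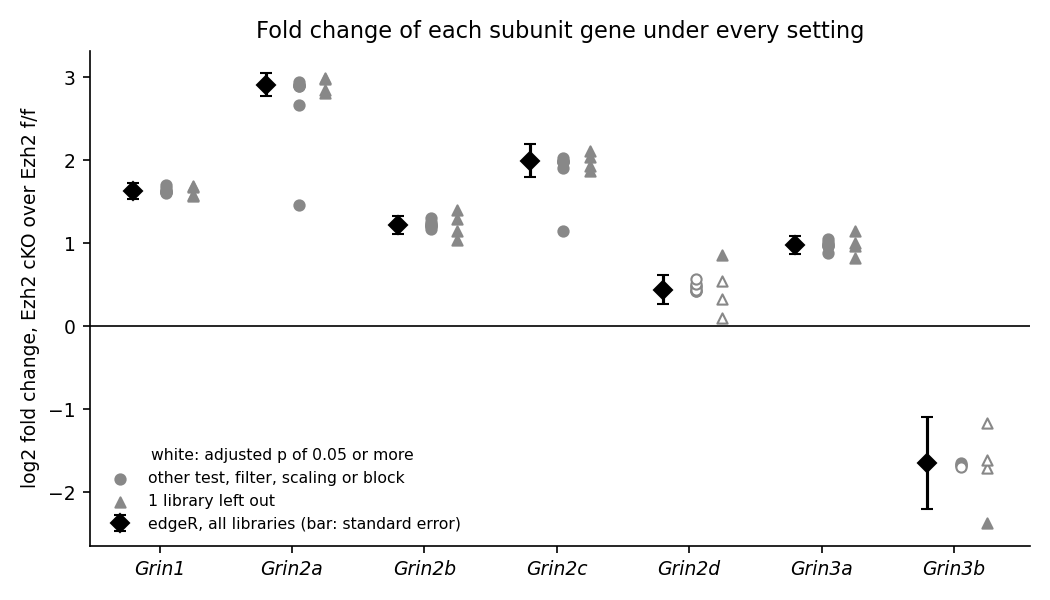
Log2 fold change (Ezh2 cKO over Ezh2 f/f) of each subunit gene in edgeR with all libraries (black diamond, bar for the standard error), under another test, filter, scaling or block (circles) and with 1 library left out (triangles). White symbols did not reach an adjusted p under 0.05, which occurred for Grin2d and Grin3b; the lone low circles of Grin2a (1.46) and Grin2c (1.15) are values on the log2(FPKM + 1) scale.

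Levels were next compared between the subunit genes by FPKM, which is scaled to gene length. The lengths used were 9700 bases for Grin1, 24842 for Grin2b and 6658 for Grin2d. The order of the genes depends on this choice: per coding base, Grin2b was above Grin2d in every library. In Ezh2 f/f, Grin2d (8.58 ± 3.13 FPKM, SD, n = 2) and Grin1 (8.45 ± 0.47) were the most abundant and overlapped each other. Grin2b (5.59 ± 0.98) and Grin3a (3.32 ± 0.52) followed. Grin2c (0.612 ± 0.032), Grin2a (0.336 ± 0.029) and Grin3b (0.270 ± 0.014) were all below 1 FPKM, and the libraries of these 3 genes did not overlap. In Ezh2 cKO the order began with Grin1 (27.7 ± 1.1 FPKM), followed by Grin2b (13.8 ± 1.1) and Grin2d (12.3 ± 1.1), which overlapped each other. Grin3a (6.94 ± 0.21) stood below these, and Grin2a (2.68 ± 0.22) and Grin2c (2.58 ± 0.27) overlapped as the next pair. Grin3b, at 0.0899 ± 0.0529 FPKM, was the lowest in each group. Summed over the 7 genes, the level was 24.9 and 29.4 FPKM in Ezh2 f/f, against 66.7 and 65.6 FPKM in Ezh2 cKO.

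The balance between Grin2a and Grin2b transcripts is a common readout of receptor maturation, because GluN2A joins and partly replaces GluN2B in the postnatal forebrain. The Grin2a to Grin2b ratio of FPKM was 0.0501 and 0.0729 in Ezh2 f/f, against 0.194 and 0.194 in Ezh2 cKO. The groups did not overlap, and in every library Grin2b stayed the more abundant of the pair. The difference of the log2 ratio was 1.68. With 2 libraries against 2, the exact permutation test (two-sided) gave p = 0.33, the smallest this design allows, so it cannot reach 0.05. This holds for each ratio and share below.

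Within the summed FPKM of the 4 GluN2 genes, Grin2a took 2.32% and 2.14% in Ezh2 f/f, against 8.04% and 9.02% in Ezh2 cKO. The share of Grin2c was 4.35% and 3.81% against 8.83% and 7.63%. Both shares were higher in each Ezh2 cKO library than in either Ezh2 f/f library. Grin2b held 46.3% and 29.3% in Ezh2 f/f, against 41.4% and 46.6% in Ezh2 cKO, so that its groups overlapped (exact permutation p = 0.667), and the direction of its mean difference, 6.14 percentage points, turned to -2.37 without Ezh2 f/f replicate 2. Grin2d held 47.0% and 64.7% against 41.8% and 36.8%, without overlap. The mean difference of Grin2d was -16.6 percentage points, and it was -7.72 when Ezh2 f/f replicate 2 was left out and -25.5 when Ezh2 f/f replicate 1 was.

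Which GluN2 gene led depended on the length used for scaling, since by FPKM Grin2d was ahead of Grin2b in 3 of the 4 libraries. The deposited FPKM rest on the full exon length of each gene, 24842 bases for Grin2b and 6658 for Grin2d, whereas their longest coding sequences are 4446 and 3969 bases. Per coding base, Grin2b held 73.3% and 57.2% in Ezh2 f/f, against 66.8% and 70.5% in Ezh2 cKO. Grin2d then held 22.3% and 37.9% against 20.2% and 16.7%. On this scale Grin2b was the leading GluN2 gene in every library. The share of Grin2a rested less on the choice, with 2.69% and 3.05% against 9.48% and 9.97%.

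Grin1 was also set against its possible partners. The ratio of Grin1 to the summed GluN2 FPKM was 0.599 and 0.527 in Ezh2 f/f, against 0.907 and 0.860 in Ezh2 cKO. The groups did not overlap (exact permutation p = 0.33), with a difference of 0.65 on the log2 scale. Per coding base the ratio was 0.571 and 0.620 against 0.884 and 0.785, a difference of 0.48.

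**Figure D3:**
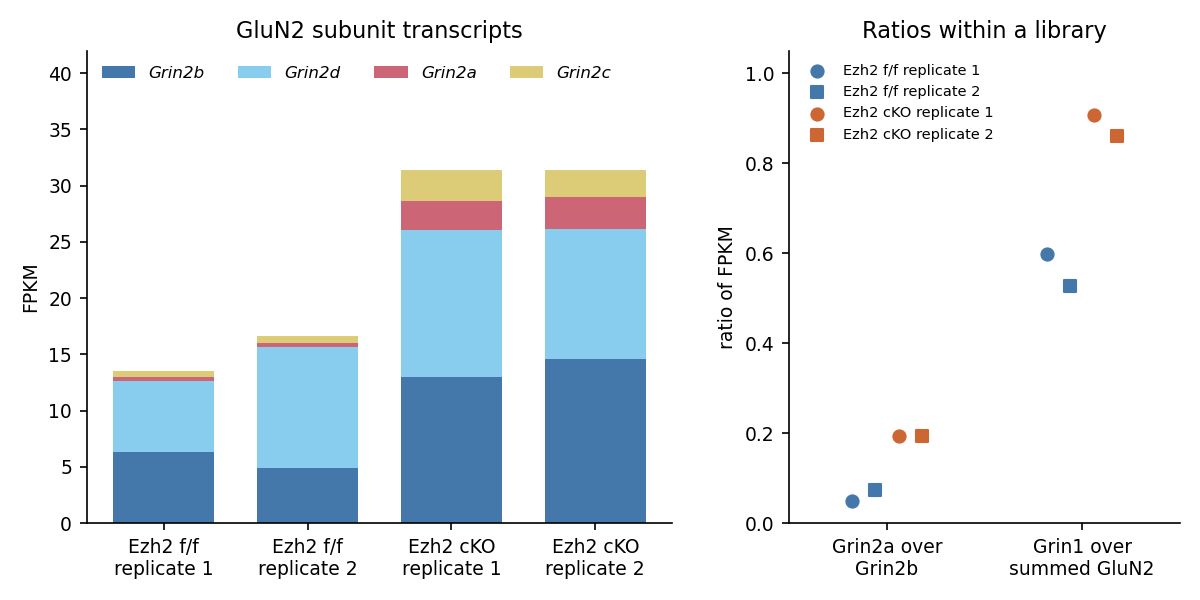
Left, stacked FPKM of the 4 GluN2 genes in each library. Right, ratio of Grin2a to Grin2b and of Grin1 to the summed GluN2 FPKM in each library; both ratios are higher in the Ezh2 cKO libraries (orange) than in the Ezh2 f/f libraries (blue), without overlap.

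Genes with the pattern most like that of a subunit gene were found by the root mean square difference of log2 CPM, centred on each gene's mean, over the 4 libraries and 14516 genes. With 4 libraries, this mainly matches the size of the difference between groups. For Grin1 they were Tex2 (0.00483), Rapgefl1 (0.0145) and B2m (0.0157). Those of Grin2a were Chrdl1 (0.0585), Akr1e1 (0.0640) and Erich3 (0.0705). Cntn3 (0.0181), Pde1a (0.0213) and Zscan26 (0.0223) were closest to Grin2b.

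Partners of the receptor were then examined as 4 lists. Of 11 genes for the supply and removal of coagonists, 10 were tested (Dao was below the filter), and 3 were higher and 2 lower, with a median log2 fold change of 0.22. Srr, the serine racemase that makes D-serine, was at 5.44 and 6.80 CPM in Ezh2 f/f, against 33.5 and 32.6 CPM in Ezh2 cKO (log2 fold change 2.44, SE 0.15, edgeR adjusted p = 8.27e-09). Slc7a10, a transporter of D-serine and glycine, rose by a log2 fold change of 2.09 and Slc1a4, a neutral amino acid transporter, by 0.29, a call that was lost without Ezh2 f/f replicate 1 (0.24, edgeR adjusted p = 0.0592) and without Ezh2 cKO replicate 1 (0.27, adjusted p = 0.0759). Shmt1, a cytosolic enzyme that interconverts serine and glycine, fell by 2.05 on the log2 scale. The first enzyme of serine synthesis, Phgdh, fell by 0.23 on the same scale, and this call was lost under 6 of 11 alternatives. The share called, 5 of 10, was below the 68.4% of all genes.

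Scaffold and transport partners were mostly higher, with 19 higher and 3 lower of 24 tested (median log2 fold change 0.77). The share called was 91.7%, beside 68.4% of all genes tested (34.7% higher and 33.6% lower). Dlg4, the gene of PSD-95, which binds GluN2 ends such as those printed above, was at 565 and 609 CPM in Ezh2 f/f, against 1329 and 1190 CPM in Ezh2 cKO (log2 fold change 1.10, SE 0.08, edgeR adjusted p = 4.01e-08). Larger rises were found for Apba1, an adaptor in dendritic transport of the receptor (2.30), for the postsynaptic scaffold gene Shank3 (1.95) and for Dlg2, a PSD-95 relative (1.58). The genes that fell were Homer3 (-1.82), another postsynaptic scaffold, Ephb2 (-0.90), a receptor kinase that binds GluN1, and Cask (-0.35), a partner of Apba1. The list thus held changes in each direction, and those that fell also act at the synapse.

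Among 20 signalling partners, 15 were higher and 4 lower (median log2 fold change 0.74). These counts stand beside 68.4% of all genes tested that passed, 34.7% as higher and 33.6% as lower. Camk2a, the kinase subunit that binds the GluN2B tail, rose from 252 and 246 CPM to 2134 and 1958 CPM (log2 fold change 3.04, SE 0.08, edgeR adjusted p = 1.14e-11). Camk2n1, an inhibitor of the same kinase, rose as well (2.04). Fyn (-0.64) and Src (-0.65), which phosphorylate GluN2 tails, and Cdk5r1 (-0.48), an activator of Cdk5, fell.

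Reported transcription regulators of subunit genes were mostly lower, with 3 higher and 7 lower of 12 (median log2 fold change -0.57). Their share called was 83.3%, beside 68.4% of all genes tested (34.7% higher and 33.6% lower). Rest, a repressor of neuronal genes, had 153 and 141 counts in Ezh2 f/f, against 76 and 77 in Ezh2 cKO (log2 fold change -1.03, SE 0.19, edgeR adjusted p = 2.83e-04). Its corepressors did not move together, since Rcor2 (-1.56) and Kdm1a (-1.23) fell while Rcor1 (0.79) and Hdac1 (0.56) rose. Of the activators named, Nrf1 fell (-1.24) and Mef2c rose (1.06).

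The subunit transcripts were set beside markers of the cells that a cortical sort can hold. None of the listed markers was at 0 in every library. As a base for the counts of markers called, 34.7% of all genes tested passed as higher and 33.6% as lower. Of 12 astrocyte markers, 10 were higher in Ezh2 cKO and none lower (median log2 fold change 1.69), and their summed level was 647 to 704 CPM in Ezh2 f/f, against 3045 to 3341 CPM in Ezh2 cKO. Slc1a3, which encodes the GLAST antigen of the sort and was singled out after its values were seen, had 1664 and 1617 counts against 5334 and 5191. Aldh1l1, which drives Cre and was chosen in the same way, had 1285 and 1250 against 1280 and 1155. Neuronal transcripts were abundant: the tubulin gene Tubb3 was at 1859 and 1897 FPKM in Ezh2 f/f, against 1223 and 1207 FPKM in Ezh2 cKO (log2 fold change -0.71, edgeR adjusted p = 2.29e-07). Gap43, a growth cone gene, went the other way, as most of its list did, with 582 and 693 FPKM against 921 and 927 FPKM (0.45, edgeR adjusted p = 3.41e-04). Of the astrocyte markers, the enzyme gene Aldoc was at 36.0 and 36.6 FPKM against 144 and 122 FPKM, and Atp1b2, a sodium pump subunit gene, at 37.9 and 47.7 FPKM against 130 and 121 FPKM. The libraries of each group therefore held neuronal RNA beside astrocyte RNA.

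Neuronal markers moved in different directions, beside 34.7% of all genes tested that passed as higher and 33.6% as lower. Of 12 pan-neuron markers, 9 were higher and 2 lower (median log2 fold change 0.55), with a summed level of 7914 to 8513 CPM in Ezh2 f/f, against 9005 to 9012 CPM in Ezh2 cKO. Of 10 markers of mature synapses, 9 were higher and 1 lower (median 2.06), from 1019 to 1150 CPM in sum against 3347 to 3366 CPM. Markers of immature neurons were lower in 8 of 10 and higher in none (median -1.48), at 11783 to 11967 CPM against 5570 to 5700 CPM. Excitatory neuron markers were higher in 2 and lower in 5 of 9 (median -0.28), yet their sum was 1233 to 1426 CPM against 3708 to 3922 CPM, as Nrgn (3.11) and Slc17a7 (3.44), which encode a calmodulin-binding protein and a vesicular glutamate transporter, rose on the log2 scale. Interneuron markers were higher in 2 and lower in 3 of 8 (median -0.13), with 673 to 747 CPM against 638 to 644 CPM.

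Other glial markers were higher, beside 34.7% of all genes tested that passed as higher. All 7 oligodendrocyte precursor markers (median log2 fold change 1.17, summed 191 to 195 CPM against 556 to 622 CPM), all 7 oligodendrocyte markers (2.93, 83.0 to 95.7 CPM against 742 to 867 CPM) and all 7 microglia markers (1.77, 75.1 to 78.9 CPM against 215 to 251 CPM) passed as higher. Of 7 endothelial markers, 1 was higher and 2 were lower (-0.08, 299 to 315 CPM against 241 to 274 CPM). The subunit genes summed to 331 to 346 CPM against 814 to 819 CPM. Markers of mature synapses, immature neurons, astrocytes and other glia thus differed beside the subunit genes, and their part in the subunit result was not tested.

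**Figure D4:**
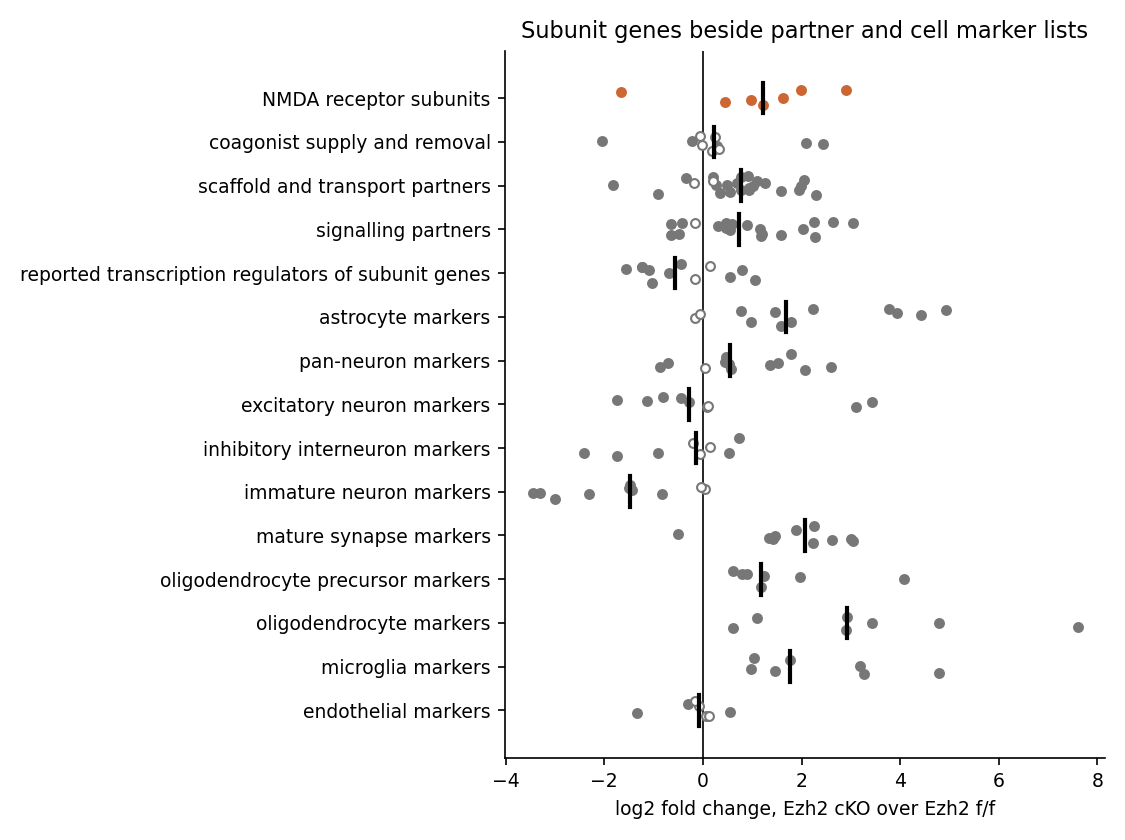
Log2 fold change (Ezh2 cKO over Ezh2 f/f) of the tested genes of each list, with filled points at an adjusted p under 0.05, white points above it and a black bar at the list's median. The subunit genes (orange) have a median of 1.22. Medians of the marker lists range from -1.48 (immature neurons) to 2.93 (oligodendrocytes). The median of oligodendrocyte precursor markers (1.17) is nearest to that of the subunit genes, and those of astrocyte (1.69), microglia (1.77) and mature synapse markers (2.06) are higher.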

How the data were processed

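RNA-seq of 2 Ezh2 f/f and 2 Ezh2 cKO libraries was used, grouped by the labels. For 29224 genes the authors deposited raw counts per gene and FPKM, whose gene length equals the GENCODE M21 exon union for all 7 subunit genes. The submitters' processing notes name Bowtie2 2.2.3, TopHat2 2.0.12, HTSeq 0.6.0 and mm9; annotation and strand setting are not given in the sources used here. The table's own comparison (means, fold changes, p-values) was not used.

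Counts were filtered with filterByExpr, normalised by TMM and tested with edgeR 4.0.16 (a term for group alone; biological coefficient of variation 0.0953 over all genes), called at an adjusted p under 0.05. The SE was derived from the log2 fold change and the F statistic. DESeq2 1.42.0 and limma 3.58.1 (R 4.3.3), other scalings, filters and pseudocounts, a replicate block and leaving out each library were alternatives; Python 3.11.15 did the rest. The tests were checked on simulated counts with few changed genes and the same spread for every gene. In the data 68.4% of genes passed, so the check does not cover a comparison like this. All subunit genes are named, with Srr, Dlg4, Camk2a, Rest, up to 3 called genes with the smallest p in each direction of each partner list, the 2 markers of highest mean FPKM in a list where markers are named, and the 3 genes most like Grin1, Grin2a and Grin2b. The members and lists were chosen with earlier results of these data known. Some items that these rules would name are not reported here.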

Additional observations from a re-analysis of the deposited data

How the results depend on the processing

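The direction and the call of Grin1, Grin2a, Grin2b, Grin2c and Grin3a held under all 11 alternatives. Grin2d lost its call in DESeq2 (log2 fold change 0.42), without a filter on low counts (0.44), and with limma on log2(FPKM + 1) (0.51) and log2(FPKM + 0.1) (0.56), and ranged from 0.10 to 0.86 when 1 library was left out. Grin3b lost its call in DESeq2 (-1.69), ranged from -2.37 to -1.16 when 1 library was left out, and was below the filters of at least 50 counts on average and of FPKM 1 in 2 libraries, so it has no value there. The difference of the Grin1 to GluN2 log2 ratio moved from 0.65 to 0.47 in counts not scaled to length and 0.48 per coding base, and that of the Grin2c share from 4.15 to 1.18 and 1.40 percentage points. The difference of the Grin2b share ranged from -2.37 to 14.6 percentage points when 1 library was left out, and the sign turned without Ezh2 f/f replicate 2. The coding-length scaling, and the Grin1 to GluN2 ratio with its alternatives, were added after seeing the data. The counts of called genes in the subunit and partner lists stayed within 1.5 times under every alternative. This limit is wide, since 5 of 7 subunit genes in DESeq2 lies within it. Over the alternatives the share of all genes called also moved, from 38.9% without a filter on low counts to 73.3% with at least 50 counts on average.

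The replicate block changed no call of a subunit gene (Grin2d 0.48, Grin3b -1.67). The deviations of same-numbered libraries correlated with r = 0.13 across genes, over 2 pairs, and nothing in the labels ties the numbers. With the block, and without either Ezh2 f/f library, edgeR took the spread of each gene wholly from the trend over all genes. These fits therefore carry no spread of the gene itself. In the main fit edgeR also drew on this trend (prior degrees of freedom, its weight, at a median of 11.8). Where 1 library was left out, the lone library is assumed to vary like the other group. With 2 libraries a group no exact test of a ratio can pass, and counts near the floor limit Grin3b alone among the 7.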

Other observations

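Transcripts that overlap the subunit genes were also counted. Grin1os, a long non-coding RNA antisense to Grin1, had 37 and 56 counts in Ezh2 f/f, against 196 and 185 in Ezh2 cKO (log2 fold change 1.93, SE 0.23, edgeR adjusted p = 4.98e-06). Its counts equalled 2.68% and 4.04% of those of Grin1 in Ezh2 f/f, against 4.10% and 4.24% in Ezh2 cKO. The antisense gene thus moved in the direction of Grin1, and without a stated strand setting reads of the pair cannot be told apart. On the strand opposite to Grin2d, the non-coding Gm45441 had 4 and 8 counts against 47 and 25 (log2 fold change 2.46, SE 0.50, edgeR adjusted p = 5.93e-04), while the protein-coding Kdelr1 had 1939 and 2006 counts against 1835 and 1832 (-0.20, adjusted p = 0.0746). Gm14330, opposite to Grin2b, had 15 and 14 counts against 14 and 7. These genes were chosen for their position.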
